A study of Homo sapiens with 24 samples.

Results

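The genes described here are 9 genes of MHC class I antigen presentation: the heavy chains HLA-B, HLA-C and HLA-E, the light chain B2M, the peptide transporter subunits TAP1 and TAP2, the loading factor TAPBP, and the proteasome subunits PSMB8 and PSMB9. They were found by gene name in the array files, where they carry 16 of the 34127 probes. Expression was measured in A549 and H1975, both human lung adenocarcinoma cell lines, on Agilent one-color arrays that read the brightness of Cy3-labeled RNA on each probe. Cells received 0.75 mg/ml Pirfenidone, an antifibrotic drug, or the same volume of PBS, for 6 h or 24 h, and no other allele or agent is named. This gave 8 groups of 3 arrays, 24 in all: A549 with PBS at 6 h, A549 with Pirfenidone at 6 h, A549 with PBS at 24 h, A549 with Pirfenidone at 24 h, and the same 4 groups of H1975. A difference between the lines is a difference between these 2 lines only.

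MHC class I molecules carry peptides from inside the cell to its surface, where cytotoxic T cells read them. Proteins are cut by the proteasome, in which PSMB8 and PSMB9 replace standard subunits after interferon exposure, and the TAP1-TAP2 transporter moves the peptides into the endoplasmic reticulum. There TAPBP, also called tapasin, holds an empty heavy chain with its B2M light chain beside the transporter until a peptide fits. Genes of the pathway are known to respond to interferons, and NLRC5 is a transcriptional activator of class I genes. Low class I expression is a known feature of many lung tumors.

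Signal well above background was read on each of the 24 arrays for 14 of the 16 probes, and these were tested. The other two, a probe for TAP2 (A_23_P368067) and a probe for TAPBP (A_23_P360291), were not well above background on any array. Levels are given as log2 signal minus the 75th percentile of the array, and a level of 1 probe cannot be set against that of another. The sequences of 4 probes are shown, each a 60-base stretch of transcript whose signal carries a result below. They were taken from the array files and are printed 5′ to 3′.
HLA-B A_33_P3399208: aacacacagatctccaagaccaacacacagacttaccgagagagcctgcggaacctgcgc
B2M A_23_P37441: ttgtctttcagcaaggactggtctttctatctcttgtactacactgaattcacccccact
PSMB9 A_23_P111000: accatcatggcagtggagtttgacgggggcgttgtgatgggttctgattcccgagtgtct
TAPBP A_33_P3325914: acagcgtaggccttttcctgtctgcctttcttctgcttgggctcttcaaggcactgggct
The HLA-B probe is unmapped in the array files, the B2M probe lies at chr15:45007773-45007832, the PSMB9 probe at chr6:32823918-32823977 and the TAPBP probe at chr6:33271911-33271970, on hg19. The B2M probe was printed on 10 spots per array, which were averaged, and the other tested probes on 1 spot each.

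HLA-B and HLA-C are near-identical in parts, and 3 of their probes overlap at the same place on chromosome 6. The probes A_33_P3424800 and A_33_P3379947 carry the name HLA-B, list RefSeq transcripts of both HLA-B and HLA-C, and lie at chr6:31321663-31321722 and chr6:31321653-31321712. The probe A_33_P3424803 carries the name HLA-C but lies at chr6:31321644-31321703, in the same stretch. A further HLA-C probe, A_33_P3330109, lies apart at chr6:31236617-31236676 and lists HLA-C transcripts only. Aligned without gaps, A_33_P3424800 and A_33_P3379947 share 50 positions and differ by G37T, counted from 1 at the 5′ end of A_33_P3424800. The 25 bases around that position are shown because the 2 probes gave different sizes of the line difference, with the differing base in capitals.
HLA-B A_33_P3424800: caattcctggaaGttgagagagcaa
HLA-C A_33_P3424803: caattcctggaaGttgagagagcaa
HLA-B A_33_P3379947: caattcctggaaTttgagagagcaa
A_33_P3424803 had no difference from A_33_P3424800 over 41 shared positions. Signals of these 3 probes are therefore uncertain as to gene. Heavy chain genes also differ between people, and the effect of each line's own alleles on probe binding was not tested.

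The promoters of 8 of the 9 genes are in the RefSeq promoter table of GRCh38.p14, from 250 bases before to 50 bases after each start. They are shown because genes of this pathway are known interferon targets. The letters searched, on both strands, were GAAA followed after 2 free bases by GAAA for the interferon-stimulated response element (ISRE), TTCNNNGAA for the gamma-activated site, a kappa-B site whose letters are those in capitals at the start of the HLA-B line, TGACG from the cyclic-AMP response element, and CCAAT. An ISRE match was present for 5 of the 8 genes, B2M, TAP1, TAP2, TAPBP and PSMB8, and in 3.57% of the 35116 promoters in the table. Counts here are by gene, with 2 listed starts each for TAP1 and PSMB8, and shares are by promoter. A response element with other letters is missed, so a gene without a match, such as HLA-B or HLA-C, may still have one. The matches are in capitals, in 1 merged block where 2 matches overlap.
B2M, chr15:44711357-44711516, plus strand: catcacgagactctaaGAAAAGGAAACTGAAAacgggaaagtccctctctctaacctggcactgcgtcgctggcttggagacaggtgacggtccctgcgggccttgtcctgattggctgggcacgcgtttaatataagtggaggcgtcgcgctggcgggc
TAP1, chr6:32853783-32853878, minus strand: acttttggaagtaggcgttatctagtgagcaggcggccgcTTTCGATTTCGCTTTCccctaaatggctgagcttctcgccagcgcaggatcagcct
TAP2, chr6:32838740-32838819, minus strand: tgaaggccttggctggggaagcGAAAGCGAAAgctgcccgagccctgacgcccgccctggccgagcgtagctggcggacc
TAPBP, chr6:33314079-33314138, minus strand: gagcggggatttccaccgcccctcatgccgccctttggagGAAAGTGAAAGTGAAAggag
PSMB8, chr6:32844042-32844091, minus strand: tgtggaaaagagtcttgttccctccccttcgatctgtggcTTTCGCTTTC
The TAP1 match belongs to 1 of its 2 listed starts, and so does the PSMB8 match, which runs from position -4 to 6 around that start. In HLA-B the kappa-B letters stood at position -177, with TGACG at position -106. The kappa-B letters were searched as a fixed sequence without free bases, which was found in 0.0313% of promoters. That share leaves out kappa-B sites with other letters, so it is no measure of how rare such sites are.
HLA-B, chr6:31357259-31357379, minus strand: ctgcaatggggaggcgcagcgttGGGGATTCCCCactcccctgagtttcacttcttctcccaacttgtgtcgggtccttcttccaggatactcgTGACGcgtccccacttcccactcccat
TGACG was found for 6 of the 8 genes and in 24.6% of promoters, CCAAT for 5 genes and in 34.6%, and the gamma-activated site letters for 2 genes, TAP1 and PSMB8, and in 7.66%. TAP1 and PSMB9 lie head to head, with 487 bases between the start of TAP1 at 32853704 and that of PSMB9 at 32854192. These matches are letters in a window and not measured binding.

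The lines differed in PBS. All 14 tested probes were higher in H1975 than in A549 at both times, and in each of them the lowest H1975 array lay above the highest A549 array of the same time. How many of all tested probes were separated in this way was not counted. A probe was called when its difference was at least 2-fold and its limma p, adjusted over all tested probes by Benjamini-Hochberg, was no more than 0.05. At 6 h 11 of 14 probes were called, all higher in H1975, while 32.4% of all tested probes were called in either direction, 4071 of 23827 as higher. At 24 h 11 of 14 were called higher, against 32.9% of all probes in either direction, 4284 of 23827 as higher. By the adjusted p alone, all 14 probes passed at both times, against 58.6% of all probes at 6 h and 59.2% at 24 h. With the brightest probe standing for a gene, 6 of 9 genes were called at each time, and the median difference of the 9 genes was 1.89 on the log2 scale at 6 h and 1.28 at 24 h, beside 0.06 and 0.08 over all tested probes. The labels and methods do not say that the 3 arrays of a group came from separate cultures, so these p-values measure only the spread between arrays, which may be technical.

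**Figure D1:**
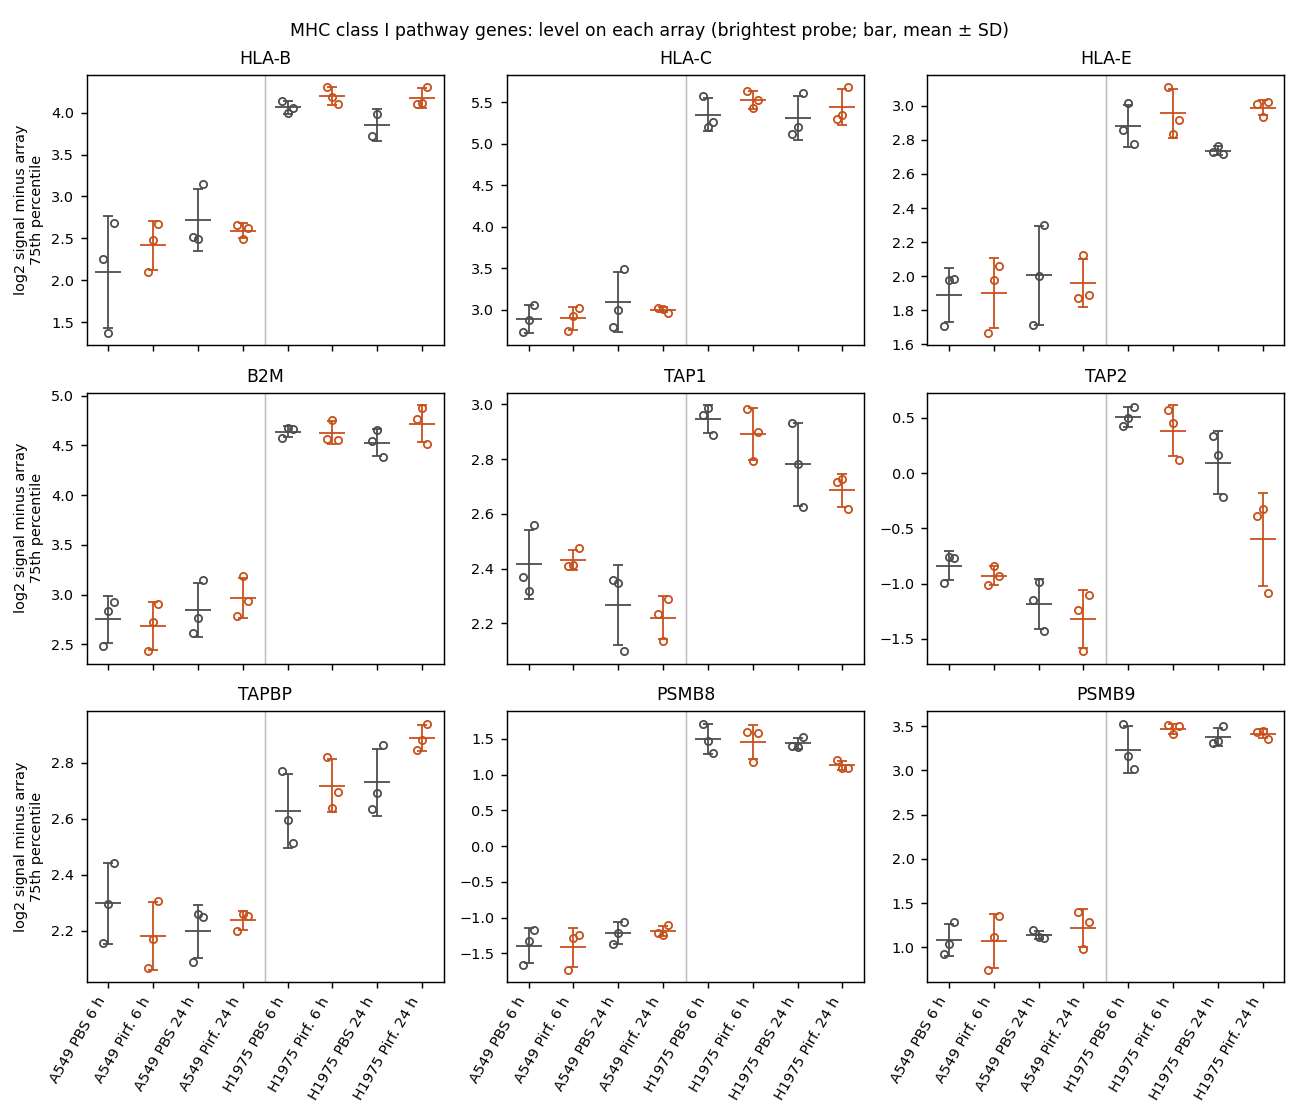
Level of the 9 genes on each array (brightest probe, log2 signal minus the array's 75th percentile) by group. Circles are arrays and bars are means with SD, n = 3 except HLA-B in H1975 with PBS at 24 h, where n = 2. In every panel the PBS arrays of H1975 lie above those of A549 of the same time.

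Among the heavy chains, HLA-B gave 3 probes with 3 sizes of difference. Probe A_33_P3399208 read -4.99, -4.54 and -4.58 in A549 with PBS at 6 h and 3.15, 3.08 and 2.91 in H1975. The difference was 7.75 ± 0.17 (SE) at 6 h (adjusted p = 6.86e-18, limma) and 7.48 ± 0.17 at 24 h (1.16e-17). This probe was well above background on the arrays of both lines, and the lines lay far apart on it. Probe A_33_P3379947 read 0.87, 1.11 and 1.31 in A549 and 5.23, 4.96 and 4.96 in H1975 at 6 h, a difference of 3.95 ± 0.17 (adjusted p = 2.63e-13). The brightest HLA-B probe, A_33_P3424800, showed the least, 1.97 ± 0.24 at 6 h (1.64e-06) and 1.14 ± 0.27 at 24 h (0.00159). One of the 3 H1975 PBS arrays at 24 h had no value for it because the spot was marked as an outlier, so n was 2 there. With the authors' processed values its 24 h difference was 0.67 and was not called (adjusted p = 0.0781). All 3 probes were higher in H1975, and the size of the HLA-B difference depended on the probe.

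HLA-C was higher in H1975 by 2.87 ± 0.15 at 6 h on its own-locus probe A_33_P3330109 (adjusted p = 5e-12) and by 2.63 ± 0.15 at 24 h (1.89e-11). On that probe the 6 PBS arrays of A549 ran from 1.17 to 1.82 with a median of 1.48, and the 6 of H1975 from 4.13 to 4.32 with a median of 4.21. The brighter probe A_33_P3424803 gave 2.45 ± 0.17 and 2.21 ± 0.17. HLA-E, a nonclassical heavy chain read by NKG2A receptors, was higher by less than 2-fold. Its PBS arrays ran from 1.71 to 2.30 in A549 and from 2.72 to 3.02 in H1975 without overlap. The difference was 0.995 ± 0.14 at 6 h (adjusted p = 5.05e-06), just under the 2-fold limit, and 0.73 ± 0.14 at 24 h (0.000164).

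B2M, the light chain that every class I heavy chain needs, read 2.49, 2.84 and 2.93 in A549 and 4.57, 4.67 and 4.67 in H1975 at 6 h in PBS. At 24 h it read 2.62, 2.77 and 3.15 in A549 and 4.55, 4.66 and 4.39 in H1975. The lines were separated at both times by more than the spread of their arrays, with H1975 3.70-fold higher at 6 h and 3.22-fold at 24 h. The log2 differences were 1.89 ± 0.16 (adjusted p = 6.22e-09) and 1.69 ± 0.16 (3.02e-08).

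Transporter and loading genes were also higher in H1975. TAP1, which forms the transporter with TAP2, was 1.44-fold higher in H1975 at 6 h (log2 difference 0.53 ± 0.10, adjusted p = 0.00017) and 1.43-fold at 24 h (0.51 ± 0.10, 0.000233), under the 2-fold limit. TAP2 read -0.99, -0.76 and -0.76 in A549 and 0.42, 0.50 and 0.60 in H1975 at 6 h. Its difference was 1.35 ± 0.19 at 6 h (adjusted p = 7.19e-06) and 1.28 ± 0.19 at 24 h (1.29e-05). TAPBP gave different sizes on its 3 tested probes. The brightest, A_23_P365719, lists a pair of RefSeq transcripts and differed by 0.33 ± 0.10 at 6 h (0.0101) and 0.53 ± 0.10 at 24 h. The probes A_33_P3325914 and A_23_P259580 both list another transcript form and differed by 1.20 ± 0.11 and 1.24 ± 0.18 at 6 h and by 1.39 ± 0.11 and 1.43 ± 0.18 at 24 h. All 3 were higher in H1975, and both probes for the other form passed the 2-fold limit at both times.

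The inducible proteasome subunits, which change how peptides are cut, were higher in H1975 too. PSMB8 read -1.67, -1.33 and -1.18 in A549 and 1.72, 1.47 and 1.30 in H1975 at 6 h. The difference was 2.89 ± 0.15 at 6 h (7.41-fold, adjusted p = 6.23e-12) and 2.65 ± 0.15 at 24 h (2.29e-11). PSMB9 read 0.92, 1.04 and 1.29 in A549 and 3.53, 3.16 and 3.02 in H1975, a difference of 2.15 ± 0.15 at 6 h (4.17e-10) and 2.24 ± 0.15 at 24 h (2.25e-10). Both are the inducible forms of standard subunits, PSMB5 for PSMB8 and PSMB6 for PSMB9. PSMB5 was lower in H1975, with a difference of -0.39 ± 0.11 at 6 h (adjusted p = 0.0069), and so was PSMB6, with -0.39 ± 0.09 (0.000892), both under the 2-fold limit. The ratio of PSMB8 to PSMB5 within an array was 9.67-fold higher in H1975 at 6 h and 7.88-fold at 24 h, and that of PSMB9 to PSMB6 5.84-fold and 5.63-fold. All H1975 arrays lay above all A549 arrays in these 4 comparisons (exact permutation test, two-sided, p = 0.1, the smallest that 3 against 3 can give). PSMB10, the third inducible subunit, did not follow. Its difference was 0.10 ± 0.25 at 6 h (adjusted p = 0.741) and its ratio to PSMB7 was 0.919-fold (exact permutation p = 0.5).

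**Figure D2:**
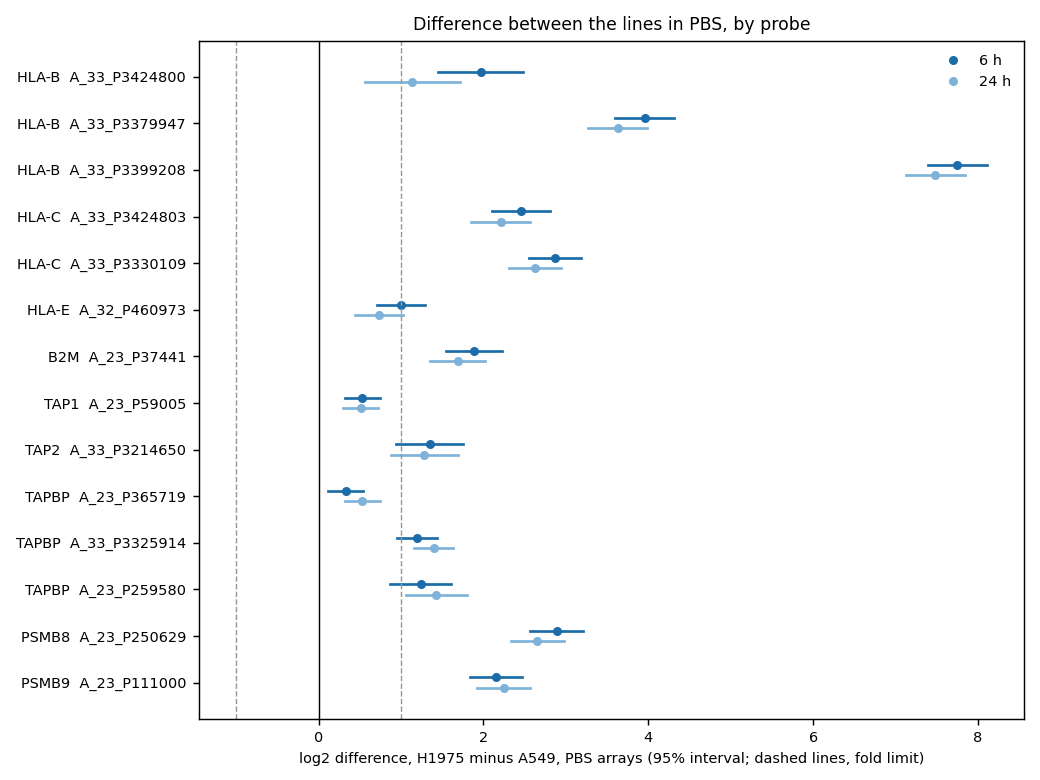
Difference between H1975 and A549 in PBS for the 14 tested probes (x axis, log2 difference, with 95% intervals from limma, dashed lines at the 2-fold limit). All intervals lie above 0, from TAPBP A_23_P365719 at 0.33 to HLA-B A_33_P3399208 at 7.75 at 6 h.

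The arrays carry 4 dates, called runs here, and 7 slides, and each slide held arrays of 1 line only. Runs 1 and 3 held both lines. Within run 1 the differences of the 14 probes at 6 h ran from 0.33 to 7.73 and within run 3 from 0.30 to 7.62, all above 0. At 24 h 13 of 13 measured differences were above 0 within run 1 and 14 of 14 within run 3. Slide and line cannot be told apart. The place on the slide followed treatment and time in both lines. Pirfenidone 6 h arrays were at place 1, PBS 6 h at 2, Pirfenidone 24 h at 3 and PBS 24 h at 4. A drug or time difference therefore cannot be told apart from one of place. Of the H1975 arrays in run 3, that with PBS at 24 h was on slide 1 and the others on slide 3. In bulk RNA, fewer cells of a type and less RNA per cell cannot be told apart either.

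The known partners of the pathway did not all differ the same way. Among 8 tested class I heavy chain and class I-like genes outside the 9, with a median of 0.12 at 6 h, HLA-F and HLA-G were called higher in H1975 at both times and FCGRT, the neonatal Fc receptor, lower, with a difference of -2.38 at 6 h. HLA-F was higher by 3.22 ± 0.14 and HLA-G by 2.74 ± 0.12 at 6 h. The stress ligands MICA and MICB, which do not bind peptide, differed by 0.01 and 0.04.

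Of 10 genes of peptide trimming and loading, 2 were called higher in H1975 at each time and none lower by their brightest probes. A dimmer probe of CANX (A_24_P345993), which encodes the chaperone calnexin, was called lower, by -1.14 at 6 h and -1.37 at 24 h, where its brightest probe gave -0.35 and -0.40 and was not called; it was singled out after its values were seen. ERAP2, an aminopeptidase that trims peptides in the endoplasmic reticulum, was higher by 5.43 ± 0.21 at 6 h and 5.73 ± 0.21 at 24 h. Its relative ERAP1 differed by 0.12 ± 0.20. TAPBPL, a peptide editor related to tapasin, was higher by 2.35 ± 0.34. The list's median was 0.13. Of 9 other proteasome and activator genes, 1 was called, the assembly factor POMP, with a difference of -1.40 at 6 h, and the median was -0.13.

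Among 19 regulators, NLRC5 and IRF9 were called higher in H1975, and JAK2 and IFNAR2 lower, at both times, with a median of 0.19 at 6 h. The brighter NLRC5 probe was higher by 2.95 ± 0.22 at 6 h (adjusted p = 8.35e-10) and 2.80 ± 0.22 at 24 h. The dimmer, A_23_P26583, was not well above background on the PBS arrays of A549 and was at least 8.35-fold higher in H1975 at 6 h and at least 8-fold at 24 h. IRF1, an activator of class I promoters, was higher by 0.74 ± 0.18 (0.00145), under the limit. At 24 h JAK2 differed by -1.16 and IFNAR2 by -1.05.

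Of 15 tested interferon-inducible genes, 13 were called higher in H1975 at 6 h and 12 at 24 h, with a median of 5.09 at 6 h. BST2, also called tetherin, was higher by 10.03 ± 0.43 at 6 h, IFIT1 by 5.79 ± 0.24 and IFIT2 by 5.53 ± 0.33. IFI44L was at least 48.7-fold and GBP1 at least 44.2-fold higher, since neither was well above background on the A549 arrays of that group. OAS1 was called lower, at -1.92. Of 9 tested class II genes 6 were called higher at each time, with HLA-DPB1 at least 42.2-fold, CIITA at least 17.2-fold, CD74 at least 15.4-fold and HLA-DRA at least 13.8-fold higher at 6 h, and HLA-DPA1 higher by 2.97 ± 0.35. HLA-DMB was called lower, at -2.13. OAS1 and HLA-DMB were named after their values were seen. The bounds take the lowest signal that counted as well above background on each A549 array as the A549 level.

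**Figure D3:**
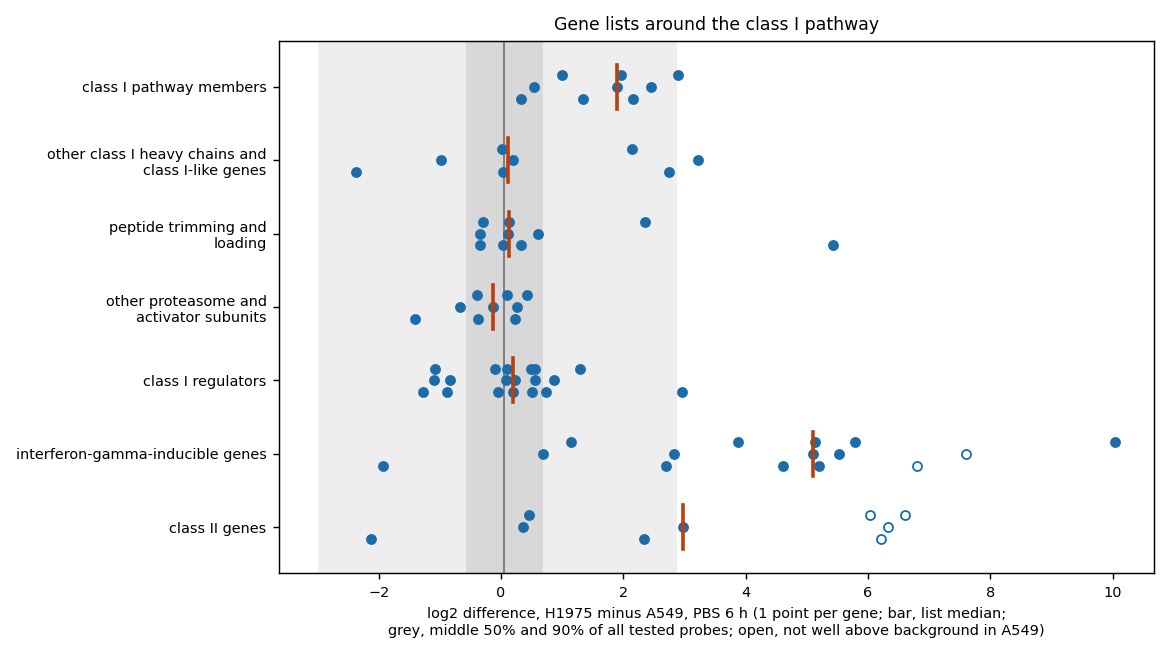
Difference between H1975 and A549 in PBS at 6 h for the genes of each list (x axis, log2 difference, 1 point per gene, bar at the list median, open points not well above background in A549), over the spread of all tested probes in grey. The class I genes have a median of 1.89, the interferon-inducible genes 5.09 and the other proteasome genes -0.13.

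All 6 epithelial markers were detected well above background on the 12 arrays of each line. Of 4 lung epithelial markers, NAPSA and SFTPC were detected on all 12 arrays of each line, and SFTPB on some arrays of each. NKX2-1, a lung lineage factor, was on none of the A549 arrays and on all of those of H1975. Of 8 leukocyte markers, 5 were detected on all 12 A549 arrays and 4 on all 12 of H1975. Their mean log2 level ran from -5.45 to -4.84 in A549 and from -5.06 to -4.71 in H1975. MS4A1 was detected on no array of either line, and CD3E on none of A549. Of 8 fibroblast and endothelial markers, 3 were on all A549 arrays and 6 on all H1975 arrays, with mean levels from -6.68 to -6.28 and from -4.85 to -3.64, and their part in the line difference was not tested. Between the outermost chromosome 6 probes of the 9 genes, at 30460729 and 33281029, lie 123 other tested probes without listed or HLA names. Of these, 22 (17.9%) were called higher in H1975 at 6 h and 9 (7.32%) lower. Over the whole array, 4071 of the 23827 tested probes were called higher in this comparison and 3638 lower.

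Among the pairs of Pirfenidone and PBS arrays, that of A549 in run 1 at 24 h stood apart. The median difference of 54 G2/M genes, a cell cycle list, was 1.30 in that pair and -0.20 and -0.69 in the pairs of runs 2 and 3. In the run 1 pair HLA-C (A_33_P3424803) differed by -0.53 and HLA-E by -0.41, while in the other pairs HLA-C differed by up to 0.22 and HLA-E by up to 0.16. Without both arrays of that pair no probe of the 9 genes was called in A549 at 24 h, and on the brightest probes the change of TAP2 was -0.36 (adjusted p = 0.762) and that of B2M was 0.29 (0.75).

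The second question was whether Pirfenidone changed these genes. No probe of the 9 genes was called in any of the 4 comparisons of Pirfenidone with PBS. Few probes of the array were called: in A549 0.176% of all tested probes at 6 h and 0.0126% at 24 h, and in H1975 0.491% and 1.89%. At an unadjusted p under 0.05 in limma, no probe of the 9 genes passed in A549 at either time or in H1975 at 6 h. In H1975 at 24 h 3 passed, and how many of all tested probes passed unadjusted in these comparisons was not counted. The methods' t-test, paired by run, called no probe of the 9 genes either at a fold of at least 2. In A549 the differences of the 14 probes ran from -0.12 to 0.32 at 6 h and from -0.13 to 0.13 at 24 h, and the 95% intervals reached at most 1.78-fold and 1.56-fold. The range at 24 h includes the run 1 pair, without which the brightest probes ran from -0.36 for TAP2 to 0.29 for B2M. In H1975 at 6 h they ran from -0.13 to 0.24, with intervals of at most 1.57-fold, and in H1975 at 24 h from -0.70 to 0.50, with intervals of at most 2.15-fold. The intervals allow for changes smaller than these bounds.

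**Figure D4:**
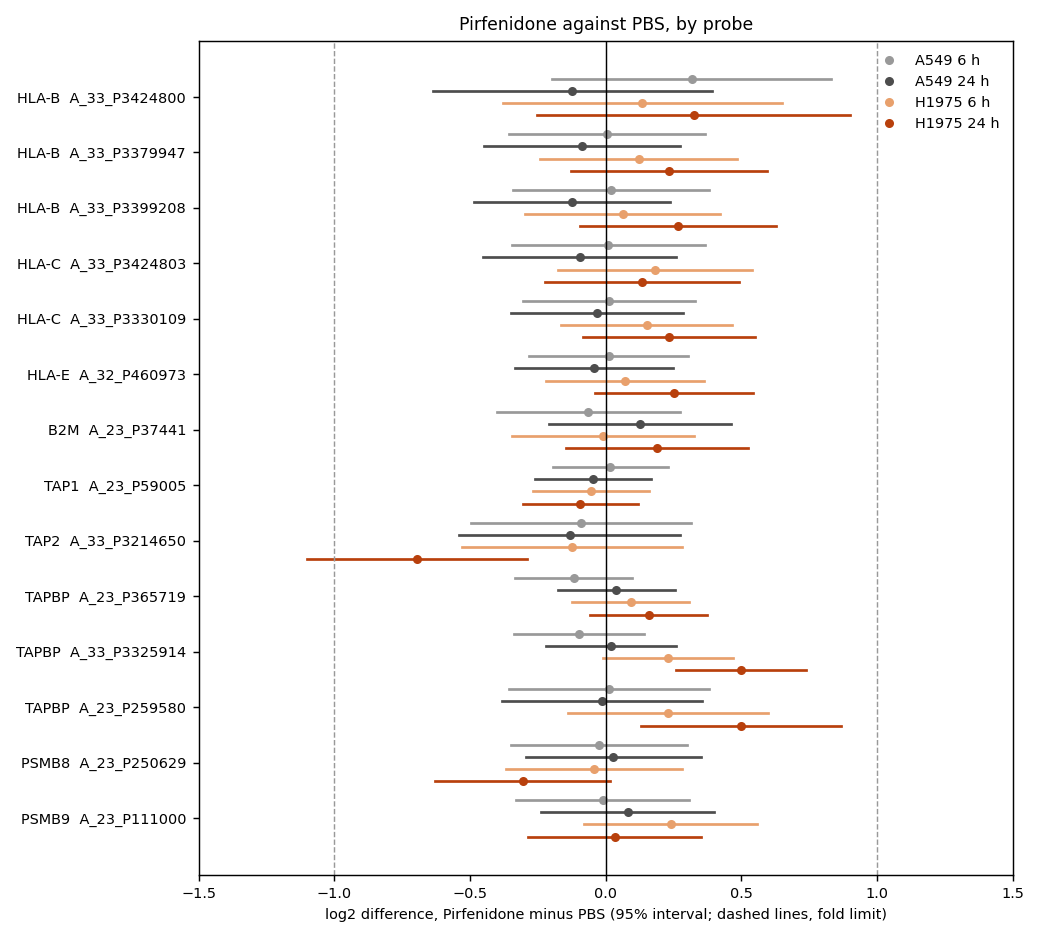
Pirfenidone minus PBS for the 14 tested probes in 4 comparisons (x axis, log2 difference, with 95% intervals from limma, dashed lines at the 2-fold limit). In H1975 at 24 h, TAP2 lies at -0.70 and the TAPBP probes A_33_P3325914 and A_23_P259580 at 0.50, and no point reaches a dashed line.

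In H1975 at 24 h, 2 of the 14 probes passed the adjusted p without the fold limit, against 6.26% of all tested probes. TAP2 read 0.34, 0.16 and -0.21 with PBS and -0.39, -0.32 and -1.08 with Pirfenidone, without overlap. Its difference was -0.70 ± 0.19 (SE), with an adjusted p of 0.04 in limma. Within the 3 runs the difference was -0.87, -0.73 and -0.49. The median difference of the 54 G2/M genes was -1.54, -0.85 and -0.89 in the same 3 pairs, and its part in the TAP2 result was not tested. Without the third Pirfenidone array the difference was -0.45 (adjusted p = 0.233). Without the first PBS array it was -0.57 (0.159), without the second -0.66 (0.105), and under normexp background correction -0.72 (0.0789), so that in these the adjusted p rose above 0.05 while the direction stayed. TAP2 differed by -0.13 in H1975 at 6 h and by -0.09 and -0.13 in A549 at 6 h and 24 h, none past the test. The line difference of its change at 24 h was -0.56 ± 0.27 (adjusted p = 0.425).

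TAPBP moved the other way in H1975 at 24 h. Probe A_33_P3325914, whose sequence is shown above, read -0.27, -0.35 and -0.22 with PBS and 0.18, 0.13 and 0.34 with Pirfenidone, a difference of 0.50 ± 0.11 (adjusted p = 0.0171). The other probe for this transcript form, A_23_P259580, gave 0.50 ± 0.18 (0.0973) and the brightest TAPBP probe 0.16 ± 0.10 (0.401), so the rise passed the test on 1 of 3 probes. The size on A_33_P3325914 held when single arrays were left out, between 0.43 and 0.54, but the adjusted p was 0.109 without the third Pirfenidone array, 0.056 without the first PBS array and 0.0612 without the second. In the fit of only the 6 arrays compared, neither passed (adjusted p = 0.174 for TAP2 and 0.0703 for TAPBP).

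The other members at 24 h in H1975 did not pass the adjusted p in limma. HLA-B on A_33_P3399208 read 2.93, 2.94 and 2.92 with PBS and 3.24, 3.20 and 3.15 with Pirfenidone, without overlap. Within the 3 runs it was above PBS by 0.23, 0.31 and 0.26. On A_33_P3424800 the 2 PBS arrays with a value read 3.72 and 3.99, and the drug arrays ran from 4.10 to 4.31. On A_33_P3379947 the groups overlapped, from 4.74 to 5.15 with PBS and from 5.08 to 5.33 with Pirfenidone. HLA-C on A_33_P3330109 read 4.24, 4.17 and 4.13 with PBS and 4.41, 4.42 and 4.40 with Pirfenidone, without overlap, a difference of 0.23 ± 0.15 (adjusted p = 0.405). HLA-E read 2.73, 2.76 and 2.72 with PBS and 3.01, 2.94 and 3.02 with Pirfenidone, without overlap, a difference of 0.25 ± 0.14 (adjusted p = 0.307). PSMB8 read 1.40, 1.39 and 1.52 with PBS and between 1.09 and 1.21 with Pirfenidone, also without overlap, a difference of -0.31 ± 0.15 (0.256). The drug arrays were the higher ones for HLA-B on A_33_P3399208 and for HLA-C and HLA-E, and the lower ones for PSMB8. Full separation of 3 arrays from 3 has an exact two-sided permutation p of 0.1. How many of all tested probes showed no overlap in this comparison was not counted, here or for TAP2 above. B2M differed by 0.19 ± 0.16, TAP1 by -0.09 ± 0.10 and PSMB9 by 0.03 ± 0.15, each with overlapping groups. The arrays of a run deviated together here (r from 0.458 to 0.718), and within the 3 runs B2M was above PBS by 0.13, 0.22 and 0.22, with an adjusted p of 0.255 in limma with the run as a block. Within the runs TAP1 was below PBS each time, by values from -0.22 to -0.0098, and PSMB9 had both signs.

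The line difference of the drug change was called for none of the 14 probes, with the smallest adjusted p at 0.215 at 24 h and 1 at 6 h, against 0.193% and 0.0336% of all probes called. None passed at an unadjusted p under 0.05 at 6 h and 1 did at 24 h. The time difference of the drug change was called for none in either line, against 0.0294% of all probes in A549 and 0.0042% in H1975, and none passed unadjusted. In PBS, 24 h against 6 h, none was called in A549 or in H1975, against 0.109% and 0.315% of all probes. Unadjusted, 1 probe in each line passed, HLA-B A_33_P3424800 at 0.62 in A549 and TAP2 at -0.41 in H1975. The share of all tested probes that passed unadjusted was not counted for any of these comparisons.

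Of the other pathway lists, leaving aside the cell type markers, the drug comparisons passed the adjusted p without the fold limit for HSPA5, an endoplasmic reticulum chaperone, in A549 at 6 h (0.95 ± 0.20, adjusted p = 0.0403) and for MICB in H1975 at 24 h (-0.54 ± 0.13, 0.0242), and with the fold limit for no gene. NLRC5 differed by -0.46 ± 0.22 on its brighter probe in H1975 at 24 h (adjusted p = 0.221 in limma). Its dimmer probe, A_23_P26583, did not show this fall, with a difference of 0.10 ± 0.41 (0.935). Centered within each line, the profiles most like the mean of the 9 genes over the 24 arrays were those of ANKRD16 (Pearson r = 0.827), RILPL2 (0.825), MEF2BNB (0.804), TSR3 (0.802) and ZBTB8OS (0.780), out of 14594 genes. The mean of the 9 genes varied little within a line (SD 0.11 on the log2 scale), and the arrays share runs and slides. The 9 genes did not share 1 profile: within the lines, r with the mean of the other members ran from 0.688 for PSMB8 to -0.156 for TAP2.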

How the data were processed

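Total RNA of 24 samples was labeled with Cy3 and read on Agilent one-color arrays. The authors deposited the scanner's intensity of each spot, as processed by Agilent Feature Extraction 11.5.1.1, and a table of processed log2 values that the authors had centered per probe. Set against the scanner values, the table's scale and direction were the same (lowest r = 1 over differences between arrays), its column medians ran from -0.16 to 0.16, and the constant taken from each array stays unknown. Intensities were taken as log2 minus the 75th percentile of 43118 non-control spots per array. Spots marked as outliers were dropped, and repeated spots of a probe averaged. Tested were 23827 probes that at least 1 group showed well above background on its 3 arrays, and 62.7 to 69.5% of probes were well above background per array. The number of arrays limits the precision.

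All 8 groups were fitted together with limma 3.58.1 in R 4.3.3 (16 residual degrees of freedom), and the fit was tested on simulated data. A call needed a fold of at least 2 and a p, adjusted by Benjamini-Hochberg over all tested probes, of no more than 0.05. Of the genes outside the 9, those named are NLRC5, IRF1, up to 5 called genes per list by size, and, for contrast, others picked after their values were seen. Some genes that this rule takes in are not reported here. The brightest probe stands for a gene. The members and lists were chosen with earlier results of these data known. The G2/M list is that of Seurat 5.3.0. Alternatives changed the background correction, normalization, filter, blocks for replicate number, run and slide, the arrays fitted, the threshold and the probe rule, left out arrays, and used the methods' t-test, paired by run, for the drug comparisons. Replicate numbers were checked as pairs and did not pair all comparisons.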

Additional observations from a re-analysis of the deposited data

Results flagged for a closer look

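For TAPBP in A549, the difference between Pirfenidone and PBS on the brightest probe was below 0 within every run at 6 h and above 0 within every run at 24 h. The means were -0.12 at 6 h and 0.04 at 24 h, 0.16 apart, with a standard error of 0.15. At 24 h the values within the runs were 0.0055, 0.11 and 0.0024, of which 2 lie near 0. The other 2 probes did not show the pattern: at 24 h A_33_P3325914 gave -0.11, 0.20 and -0.035, and A_23_P259580 had both signs at each time. The opposite direction on the brightest probe was seen in the runs and was not itself tested there. In limma the time difference of the drug change had an adjusted p of 1.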

How the results depend on the processing

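The count of member probes called in PBS between the lines stayed between 11 and 14 at 6 h and between 9 and 14 at 24 h over the alternatives, and all that passed the filter were higher in H1975. Leaving out each array in turn gave 11 to 12 at 6 h and 11 at 24 h. With the replicate number as a block the counts were 12 and 11, and 0 in each drug comparison. The correlation of same-numbered arrays ran from -0.68 to 0.43 in H1975 at 6 h, so the numbers were not taken as pairs. For Pirfenidone in H1975 at 24 h the count was 2 with no fold-change limit. It was 0 in every other case of the drug, interaction and time comparisons. In the main fit no member probe reached the 2-fold limit in these comparisons. Alternatives that kept the limit and changed only the p-value, the methods' t-test among them, could therefore give no count but 0. That t-test was not run for HLA-B in H1975 at 24 h, where 1 spot has no value. HLA-B at 24 h was not called with the authors' processed values (0.67, adjusted p = 0.0781) or the Holm adjustment (p = 1), nor was TAP2 under Holm (p = 0.0534). HLA-E at 6 h passed the 2-fold limit under normexp (1.02), quantile normalization (1.08) and the replicate block (1.16). TAPBP passed it at 24 h with the mean of its probes (1.12). Without the filter on dim probes, the TAP2 probe A_23_P368067 was called lower in H1975 (-1.51 at 6 h) although it was below background on all arrays. The causes were not tested.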
